A study of Rattus norvegicus with 6 samples.

Results

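The chemokine ligand and receptor genes of rat calvarial bone defects were examined at week 4 after surgery. Members were taken by name: every gene in the deposited expression table whose symbol is Ccl, Cxcl, Cx3cl, Xcl, Ccr or Cxcr followed by digits only, except Cxcl12, Cxcr4, Cxcr2, Ccr7, Ccl19, Ccl21, Cxcl13 and Cxcr5. The pattern found 49 genes, and leaving out those 8 gave 41 members of the 34045 genes in the table, 30 of them ligands and 11 receptors. All samples were wild type male Sprague-Dawley rats, an outbred laboratory stock, whose skull defects held either the CGG hydrogel (3 libraries) or the CGG-Cit hydrogel (3 libraries). The sources used here do not spell out the gel names or give the age of the rats, and both groups received a gel, so there was no empty defect in the comparison. No label says that the libraries of a group came from separate animals, so p-values measure the spread between libraries, which may be technical. All 10 osteoblast markers checked were detected in every library, with a summed level of 11022 to 15815 FPKM in CGG and 5404 to 9925 in CGG-Cit.

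Chemokines are small secreted proteins that draw leukocytes along a gradient. They act through G protein-coupled receptors of the inhibitory class. CC chemokines carry adjacent cysteines near their amino terminus, CXC chemokines have a single residue between them, and most inflammatory members share receptors, so a ligand can act on several receptors and a receptor can read several ligands. In healing bone, CC chemokines are known for drawing monocytes and osteoclast precursors, and CXC chemokines for drawing neutrophils or, through Cxcr3, activated T cells.

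Promoter sequences are shown for 8 members that the results turn on, namely the Cxcr3 ligands, a pair of neighbouring CC ligands of which 1 rose, a pair of neighbouring receptors that moved in opposite directions, and a neutrophil attractant that stayed low. Each is the stretch of 250 bases before the transcription start in RefSeq's GRCr8 annotation, 5′ to 3′ on the strand of the gene. Capitals mark letters found on either strand by a search for AANNGAAA (the core of an interferon response element), TTCNNNGAA (a STAT element), GGNNTTTCC (a kB element, the type read by NF-kB) or the box of letters TATAAA. The element of GATA factors was searched as AGATAA and is marked too. These stretches lie at chr14:16006916-16007165 on the plus strand for Cxcl9, chr14:15988816-15989065 on the plus strand for Cxcl10, chr14:15973478-15973727 on the plus strand for Cxcl11, chr10:68868878-68869127 on the minus strand for Ccl9, chr10:68883367-68883616 on the minus strand for Ccl6, chr8:132439267-132439516 on the minus strand for Ccr1, chr8:132499999-132500248 on the plus strand for Ccr3 and chr14:17479322-17479571 on the minus strand for Cxcl1.
Cxcl9: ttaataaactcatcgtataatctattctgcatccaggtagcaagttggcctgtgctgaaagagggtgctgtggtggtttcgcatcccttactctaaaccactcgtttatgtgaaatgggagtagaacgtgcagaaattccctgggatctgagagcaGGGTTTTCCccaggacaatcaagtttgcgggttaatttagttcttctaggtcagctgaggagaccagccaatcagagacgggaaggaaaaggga
Cxcl10: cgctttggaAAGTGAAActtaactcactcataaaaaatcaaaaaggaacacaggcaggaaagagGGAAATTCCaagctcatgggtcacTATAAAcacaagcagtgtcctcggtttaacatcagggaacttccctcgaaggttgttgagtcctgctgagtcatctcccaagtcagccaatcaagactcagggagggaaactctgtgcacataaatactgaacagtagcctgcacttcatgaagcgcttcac
Cxcl11: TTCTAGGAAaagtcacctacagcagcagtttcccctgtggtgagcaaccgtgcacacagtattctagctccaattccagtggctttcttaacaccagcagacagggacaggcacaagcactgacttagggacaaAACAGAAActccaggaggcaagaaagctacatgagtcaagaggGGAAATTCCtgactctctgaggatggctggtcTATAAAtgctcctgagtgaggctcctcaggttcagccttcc
Ccl9: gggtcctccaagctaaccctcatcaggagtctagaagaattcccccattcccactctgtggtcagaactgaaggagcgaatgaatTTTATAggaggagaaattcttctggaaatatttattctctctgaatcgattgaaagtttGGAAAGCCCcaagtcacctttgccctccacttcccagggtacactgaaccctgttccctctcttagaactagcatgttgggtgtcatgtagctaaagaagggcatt
Ccl6: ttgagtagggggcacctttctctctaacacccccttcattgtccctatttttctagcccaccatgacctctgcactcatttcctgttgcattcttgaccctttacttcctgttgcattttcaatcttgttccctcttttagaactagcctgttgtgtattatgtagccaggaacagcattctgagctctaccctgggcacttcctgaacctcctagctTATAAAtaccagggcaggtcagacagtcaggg
Ccr1: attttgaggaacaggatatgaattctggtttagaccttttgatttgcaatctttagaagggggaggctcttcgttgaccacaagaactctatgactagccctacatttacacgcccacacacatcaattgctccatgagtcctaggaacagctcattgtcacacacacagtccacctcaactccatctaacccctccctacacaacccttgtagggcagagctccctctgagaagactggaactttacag
Ccr3: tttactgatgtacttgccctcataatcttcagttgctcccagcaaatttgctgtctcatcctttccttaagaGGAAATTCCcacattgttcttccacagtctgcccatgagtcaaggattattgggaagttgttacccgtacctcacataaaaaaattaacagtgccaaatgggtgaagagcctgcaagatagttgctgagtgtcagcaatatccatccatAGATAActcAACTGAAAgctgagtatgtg
Cxcl1: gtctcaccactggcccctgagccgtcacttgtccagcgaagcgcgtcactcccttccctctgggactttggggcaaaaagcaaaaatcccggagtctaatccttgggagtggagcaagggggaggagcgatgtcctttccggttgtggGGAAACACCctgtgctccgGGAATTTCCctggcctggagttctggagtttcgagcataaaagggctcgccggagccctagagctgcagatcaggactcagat

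RefSeq promoters were matched for 30 of the 41 members. The letters of the kB element were found in 9 of these 30 stretches, those of Ccl9, Ccl20, Ccr3, Cxcl1, Cxcl2, Cxcl6, Cxcl9, Cxcl10 and Cxcl11, against 5.19% of all 33469 promoters of that length. These 9 genes include the 3 neighbouring ligands of Cxcr3. They moved differently: Ccl9 and Cxcl9 rose in CGG-Cit, Ccr3 fell, Cxcl2 was too low to be tested, and the other 5 did not pass the test. The core of the interferon response element was found in 8 of the 30 (Ccl7, Ccr3, Cxcl10, Cxcl11, Cxcl16, Cxcl17, Cxcr1 and Xcl1) and in 23.3% of all promoters, the STAT element in 4 (Ccl17, Ccl24, Ccr6 and Cxcl11) and in 7.67%. The TATA box was found in 8 of the 30 and in 12.9% of all promoters, and the GATA element in 5, Ccr3 among them, and in 10.3%. Ccl6 has TATAAA 32 to 27 bases before its start on its own strand. Ccl9 has it only on the other strand, 165 to 160 bases before the start. Ccr1 holds none of the 5 motifs in this window. In the 8 stretches shown no match overlaps another, and a match of letters is a description of the sequence and not a binding site.

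Levels are given in FPKM, the number of sequenced fragments per kilobase of gene scaled to library size, so that genes can be compared per length. The whole reads recovered from the table summed to 14744207 to 16224920 per library, so that a single read over 1 kb equalled 0.0596 to 0.0657 FPKM. A gene was tested with limma on log2(FPKM + 1) where its mean over the 6 libraries was at least 0.5 FPKM, and it passed at an adjusted p under 0.05 over all 15965 genes tested. Fold changes are CGG-Cit minus CGG on this log2 scale, where low genes appear to change less than they do. Of the 41 members 31 passed the filter on low values, 23 ligands and 8 receptors. Of these, 29 had a mean of at least 0.5 FPKM in the CGG libraries alone, and Ccl20 and Cxcl6 did not.

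In the CGG-Cit defects 6 of the 31 tested members were higher, among them the ligand genes Ccl3, Ccl9, Cxcl9 and Cxcl16 and the receptor gene Ccr1. The share of all tested genes called higher was 7.75%. A single member was lower, the receptor gene Ccr3, against 9.78% of all tested genes. The largest called rise was that of Ccl9 at 2.03 ± 0.309 (SE), and Ccr3 fell by 1.16 ± 0.210. The other 24 tested members did not pass. The median log2 fold change of the tested members was 1.04, beside 0.002 for all tested genes, and 28 of the 31 values were positive. All 3 CGG-Cit libraries lay above all 3 CGG libraries for 10 members (19.6% of all tested genes did so) and below them for 1, Ccr3 (22.1% of all tested genes), 11 members in all, beside 41.7% of tested genes in either direction. Of the 10 without overlap on the upper side, Ccl5, Cx3cl1, Xcl1 and Cxcr3 did not pass the test. In TPM, where the median over all genes lay at 0.16, Cx3cl1, Xcl1 and Cxcr3 passed as well, giving 9 members higher and 1 lower. Over all 15965 tested genes TPM gave 2203 higher and 948 lower, against 1237 and 1561 in FPKM. The count of members called higher thus grew along with that of all genes.

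**Figure D1:**
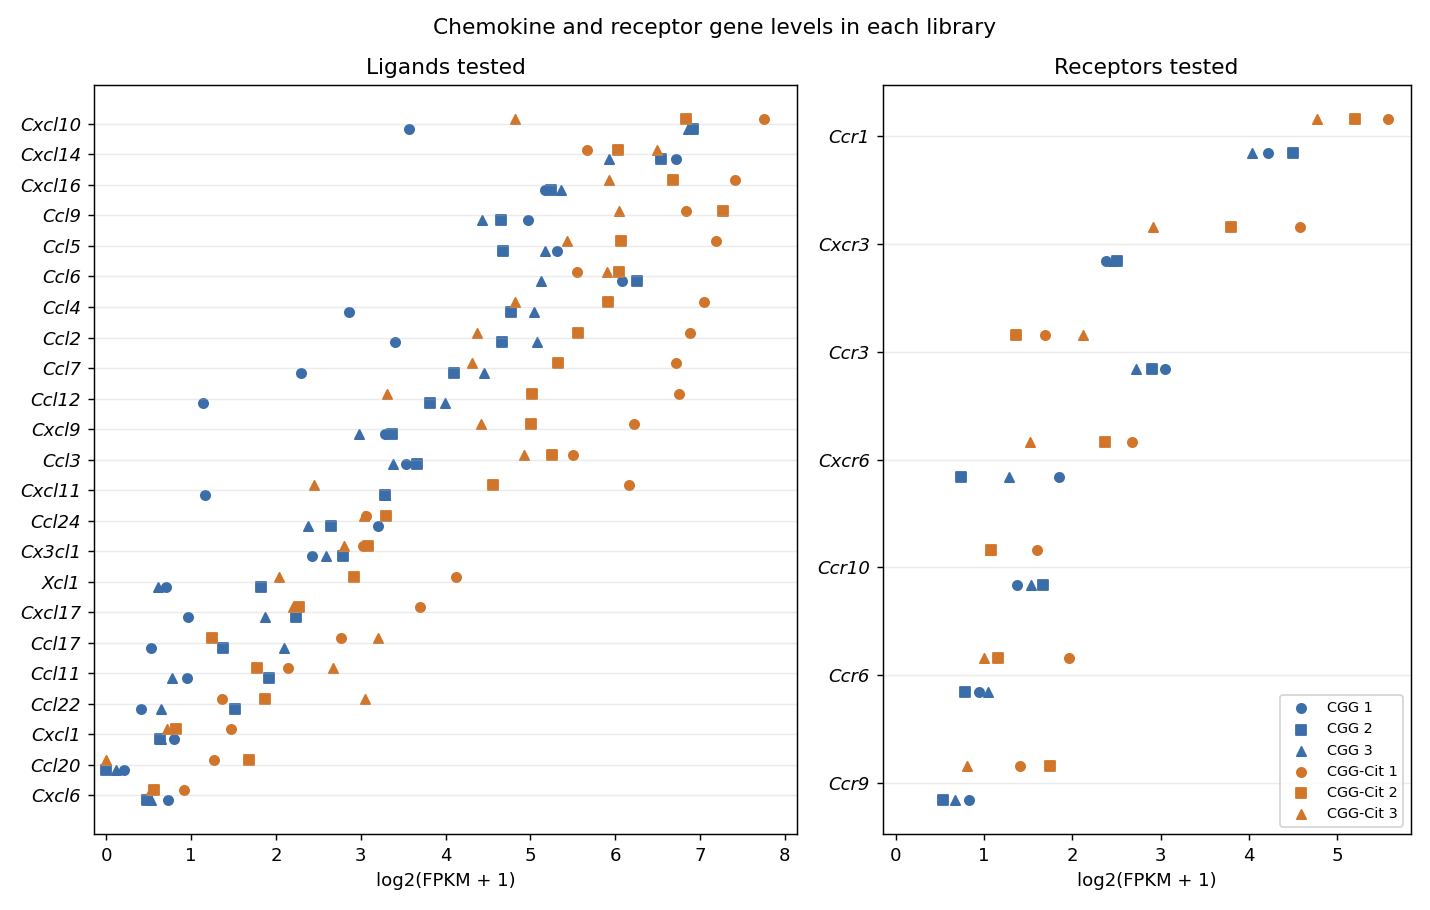
Level of 30 of the 31 tested ligand and receptor genes in the 6 libraries, as log2(FPKM + 1), with genes ordered by their mean; blue symbols are CGG libraries, orange ones CGG-Cit libraries, and the symbol shape gives the library number. The CGG values of Cxcr3, Cxcl16 and Ccl3 lie close together and below all CGG-Cit values, while Cxcl10, Ccl12 and Cxcl11 are lowest in CGG 1 and overlap between the groups.

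**Figure D2:**
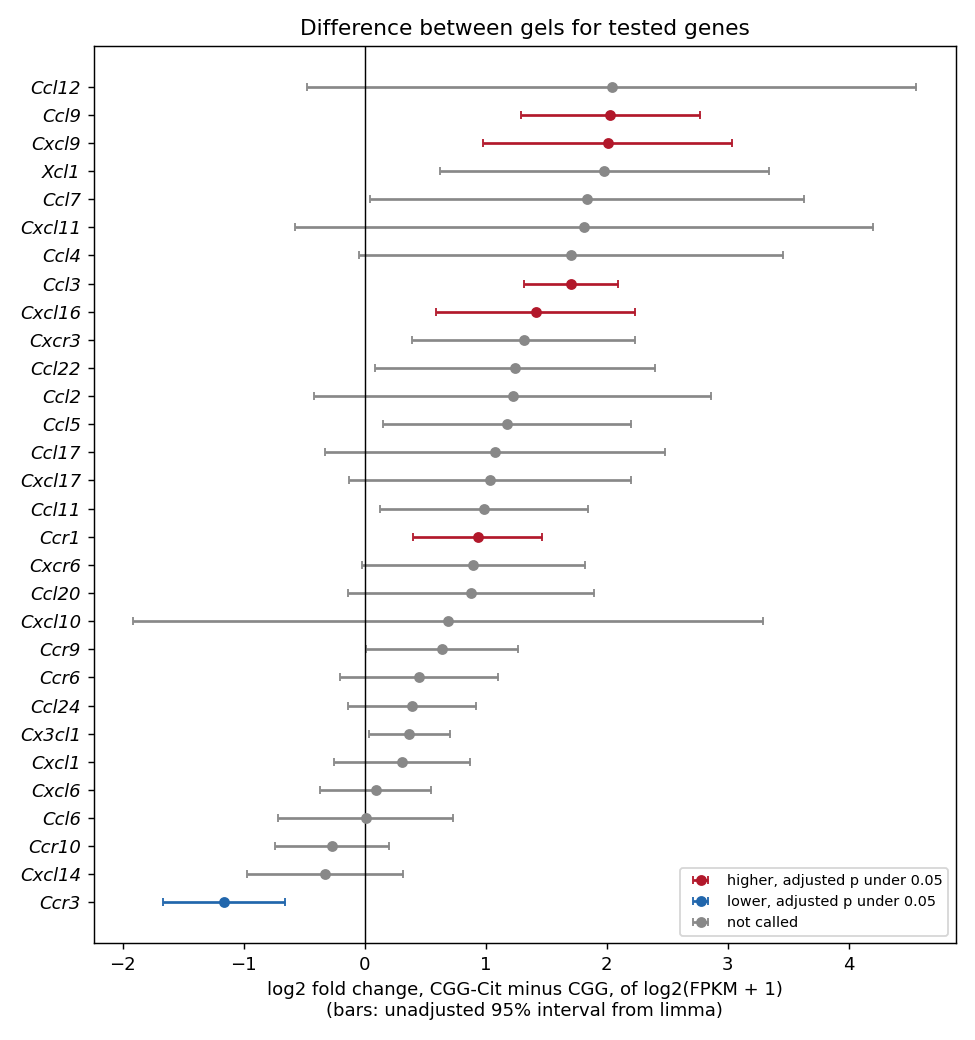
Log2 fold change, CGG-Cit minus CGG, of 30 of the 31 tested members on the log2(FPKM + 1) scale, with unadjusted 95% intervals from limma. The 5 members in red were called higher, Ccr3 in blue was called lower, and the widest interval is that of Cxcl10.

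The spread among the CGG libraries differed from member to member. The highest CGG value was under 2 times the lowest for 17 tested members and over 3 times for 12. For Ccl3, Ccl9, Cxcl9, Cxcl16, Ccr1 and Ccr3 it was 1.14 to 1.47 times the lowest. These 6 are called members, and the test favours genes with a small spread within groups, so their narrow range is no separate result. Ccl12, with a ratio of 12.4, Cxcl10 with 10.99 and Cxcl11 with 6.998 were among the 4 with the widest CGG spread, together with Ccl17 (7.34); Ccl20 had a CGG library at 0 and no ratio. CGG-Cit 1 held the highest value of the 6 libraries in 19 of the 31 tested members, and CGG-Cit 3 the lowest CGG-Cit value in 25. Neither these counts nor those of the CGG spread were made over all tested genes, so they cannot be read as traits of the members. CGG-Cit 1 also had the fewest recovered reads of the 6.

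Ccr1 is a receptor of monocytes, macrophages and T cells that also sits on osteoclast precursors. Ccr1 stood at 17.5, 21.7 and 15.4 FPKM in CGG 1, 2 and 3 and 46.8, 35.7 and 26.2 FPKM in CGG-Cit 1, 2 and 3. Every CGG-Cit library lay above every CGG library. It rose from 18.2 ± 3.21 FPKM in CGG to 36.2 ± 10.3 FPKM in CGG-Cit (SD, n = 3), with 0.93 ± 0.223 (SE), adjusted p = 0.0353 in log2 units.

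Ccl3, also called MIP-1 alpha, is a ligand of Ccr1 made by activated macrophages. Its level was 10.6, 11.7 and 9.37 FPKM in CGG 1, 2 and 3 and 44.3, 37.1 and 29.4 FPKM in CGG-Cit 1, 2 and 3. The groups lay well apart, and the means differed 3.51-fold. Ccl3 (ENSRNOG00000011205, listed at chromosome 10, 70869513 to 70871066) rose by 1.70 ± 0.163 (SE), adjusted p = 0.00413, the smallest adjusted p among the members, and passed in all 16 alternative fits. AC114233.1 overlaps it on the other strand, with at most 2.66 FPKM in any library, and without a strand setting their reads cannot be told apart. Ccl9, a ligand of Ccr1 known in rodents as a product of macrophages and osteoclasts, stood at 30.3, 24.2 and 20.6 FPKM in CGG 1, 2 and 3 and 113, 153 and 65.2 FPKM in CGG-Cit 1, 2 and 3. The groups did not overlap, and CGG-Cit 2 was highest. Ccl9 (ENSRNOG00000028548, listed at chromosome 10, 70783424 to 70788309) rose from 25.04 ± 4.89 FPKM in CGG to 110.4 ± 43.9 FPKM in CGG-Cit (SD, n = 3), 2.03 ± 0.309 (SE), adjusted p = 0.0139. Its call ended in 1 of 16 alternative fits, without CGG 3 (adjusted p = 0.0609).

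Related CC ligands did not pass. Ccl5, known as RANTES and made by T cells and platelets among others, stood at 38.8, 24.5 and 35.0 FPKM in CGG 1, 2 and 3 and 144, 66.1 and 42.1 FPKM in CGG-Cit 1, 2 and 3. CGG-Cit 3 lay just above CGG 1, so the groups met without overlapping (log2 fold change 1.18 ± 0.430 (SE), adjusted p = 0.105), and without CGG-Cit 3 the gene passed (adjusted p = 0.0350). Ccl4, a close relative of Ccl3, stood at 6.26, 26.3 and 32.1 FPKM in CGG 1, 2 and 3 and 132, 59.3 and 27.3 FPKM in CGG-Cit 1, 2 and 3. CGG-Cit 3 fell between CGG 2 and CGG 3, and the unadjusted interval of the log2 difference ran from -0.05 to 3.45 (adjusted p = 0.150). Ccl6, a further rodent ligand of Ccr1 made by myeloid cells, was at 66.6, 75.7 and 34.0 FPKM in the CGG libraries and 46.0, 64.9 and 58.6 FPKM in the CGG-Cit libraries. The groups overlapped throughout, with a log2 difference of 0.01 and an interval of -0.71 to 0.73, which leaves room for a change in either direction. Ccl9 and Ccl6 are neighbours on chromosome 10 in the table.

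The call of Ccr1 did not hold in most fits with a library left out, while its log2 fold change stayed at 0.73 to 1.14. Of the 6 fits that leave out a library, Ccr1 passed in the one lacking CGG-Cit 3, and the highest adjusted p was 0.115, in the one lacking CGG 3. It also did not pass with no filter on low values (0.0585).

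**Figure D3:**
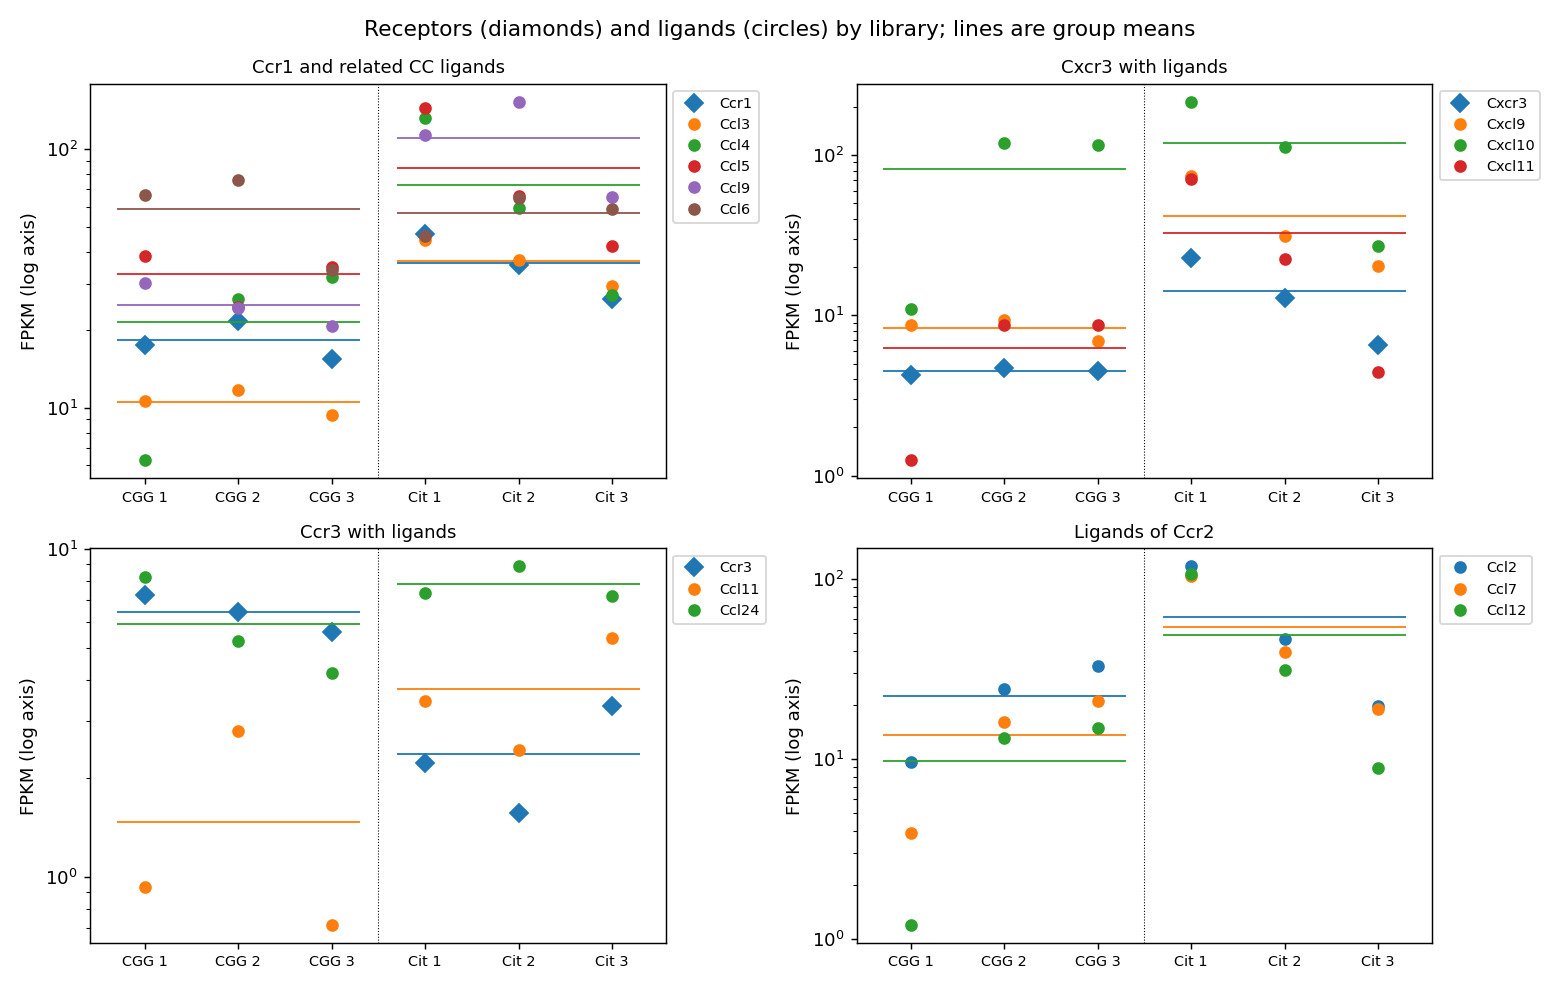
FPKM on a log axis of receptors (diamonds) and CC or CXC ligands (circles) in the 3 CGG and 3 CGG-Cit libraries (Cit 1 to 3), with arithmetic group means as lines, in 4 panels by receptor. Ccr1, Ccl3 and Ccl9 are higher in each CGG-Cit library than in any CGG library, Ccr3 is lower, and the 3 ligands of Ccr2 are lowest in CGG 1 and highest in CGG-Cit 1.

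Ccl2, Ccl7 and Ccl12 are monocyte attractants that act through Ccr2, a receptor not analysed here. None of them passed. Ccl2, or MCP-1, stood at 9.61, 24.4 and 32.9 FPKM in CGG 1, 2 and 3 and 117, 46.2 and 19.8 FPKM in CGG-Cit 1, 2 and 3. CGG-Cit 3 lay below CGG 2 and CGG 3, and CGG-Cit 1 lay above all other libraries (log2 fold change 1.22 ± 0.687 (SE), adjusted p = 0.252). Ccl7 stood at 3.91, 16.1 and 20.9 FPKM in CGG 1, 2 and 3 and 104, 39.1 and 18.9 FPKM in CGG-Cit 1, 2 and 3, with 1.84 ± 0.750 (SE), adjusted p = 0.135 on the log2 scale. Ccl12 stood at 1.204, 13.1 and 14.9 FPKM in CGG 1, 2 and 3 and 107, 31.4 and 8.89 FPKM in CGG-Cit 1, 2 and 3. Its log2 fold change of 2.04 was the largest of all tested members, yet it did not pass (adjusted p = 0.217). The values spanned 12.4-fold in CGG and nearly as much in CGG-Cit. In all 3 genes CGG 1 was the lowest CGG library and CGG-Cit 3 the lowest CGG-Cit library. They lie next to each other on chromosome 10 in the table, together with Ccl11.

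Cxcr3 is the receptor of activated T and NK cells for the interferon-induced ligands Cxcl9, Cxcl10 and Cxcl11. Of these 4 genes Cxcl9 alone passed. It stood at 8.74, 9.30 and 6.88 FPKM in CGG 1, 2 and 3 and 73.9, 31.1 and 20.3 FPKM in CGG-Cit 1, 2 and 3. All CGG-Cit values lay above all CGG values, with CGG-Cit 1 at more than 3 times CGG-Cit 3. Cxcl9 (ENSRNOG00000022242, listed at chromosome 14, 17228856 to 17234712) rose from 8.31 ± 1.27 FPKM in CGG to 41.8 ± 28.3 FPKM in CGG-Cit (SD, n = 3), 2.01 ± 0.430 (SE), adjusted p = 0.0271. Dropping CGG 1, CGG 2, CGG 3 or CGG-Cit 2 ended the call of Cxcl9 (adjusted p = 0.0699, 0.0688, 0.0956 and 0.0804). Cxcr3 itself stood at 4.22, 4.69 and 4.50 FPKM in CGG 1, 2 and 3 and 22.9, 12.9 and 6.52 FPKM in CGG-Cit 1, 2 and 3. The groups did not overlap, but CGG-Cit 3 was close to CGG, and the gene did not pass (1.31 ± 0.385 (SE), adjusted p = 0.0604). It passed without CGG-Cit 3 (0.00895) and after rescaling to TPM (0.0346).

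Cxcl10 had the highest mean of the members in CGG-Cit, 119 FPKM, the second highest in CGG, 81.8 FPKM, and the widest interval. It stood at 10.9, 119.7 and 115 FPKM in CGG 1, 2 and 3 and 216, 113 and 27.2 FPKM in CGG-Cit 1, 2 and 3. CGG 1 was the lowest of all libraries and CGG-Cit 3 the next, while CGG-Cit 2 lay below CGG 2 and CGG 3. The log2 difference was 0.69 ± 1.09 (SE), adjusted p = 0.690, with an interval of -1.92 to 3.29. Cxcl11 stood at 1.25, 8.72 and 8.74 FPKM in CGG 1, 2 and 3 and 70.5, 22.5 and 4.44 FPKM in CGG-Cit 1, 2 and 3, with the same libraries at the low end, and did not pass (1.81 ± 0.999 (SE), adjusted p = 0.244). The 3 ligand genes are neighbours on chromosome 14 in the table. Cxcl10 and Cxcl11 overlap Art3 on the other strand, which reached at most 13.7 FPKM in any library, and their reads cannot be told apart without a strand setting. Irf1, an interferon-induced transcription factor, stood at 28.6, 36.9 and 35.1 FPKM in the CGG libraries and 86.4, 43.4 and 31.9 FPKM in the CGG-Cit libraries (adjusted p = 0.293). CGG 1 was the lowest CGG library for Irf1 too, and CGG-Cit 1 the highest of the 6.

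Ccr3 is the eotaxin receptor of eosinophils, also present on basophils and mast cells. It was the only member called lower. It stood at 7.26, 6.44 and 5.59 FPKM in CGG 1, 2 and 3 and 2.23, 1.57 and 3.33 FPKM in CGG-Cit 1, 2 and 3. Every CGG-Cit library lay below every CGG library, and CGG-Cit 3 was the closest to CGG. Ccr3 (ENSRNOG00000006736, listed at chromosome 8, 133029625 to 133040997) fell from 6.43 ± 0.834 FPKM in CGG to 2.38 ± 0.889 FPKM in CGG-Cit (SD, n = 3), a log2 fold change of -1.16 ± 0.210 (SE), adjusted p = 0.0194. It was called in the fit that lacks CGG-Cit 3 and in none of those that lack another library. Dropping CGG 1, CGG 2 or CGG 3 gave an adjusted p of 0.0578, 0.0581 and 0.0628, and dropping CGG-Cit 1 or CGG-Cit 2 gave 0.0553 and 0.0592.

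No ligand of Ccr3 was called in either direction. Ccl11, or eotaxin, stood at 0.930, 2.78 and 0.715 FPKM in CGG 1, 2 and 3 and 3.43, 2.44 and 5.36 FPKM in CGG-Cit 1, 2 and 3 (0.98 ± 0.360 (SE), adjusted p = 0.105). Ccl24, or eotaxin-2, which macrophages make, stood at 8.24, 5.25 and 4.19 FPKM in CGG 1, 2 and 3 and 7.35, 8.85 and 7.204 FPKM in CGG-Cit 1, 2 and 3 (0.39 ± 0.220 (SE), adjusted p = 0.253). Both overlapped between the groups, and their log2 differences had unadjusted intervals of 0.12 to 1.84 and -0.14 to 0.92. Ccl26 had 5 reads in all and Ccl28 had 0, which allows up to 0.107 FPKM of Ccl28 in a library at 3 counts. Of 11 eosinophil, basophil and mast cell markers 3 were lower and 0 higher in CGG-Cit with limma, beside 9.78% lower and 7.75% higher of all tested genes. At an unadjusted p under 0.05 in limma the counts were 8 and 0. The share of all tested genes at that threshold was not counted, and the shares above belong to the adjusted calls. These 2 counts therefore cannot be set against all genes. The 3 called lower are mast cell and basophil genes: Ms4a2 and Fcer1a encode chains of the IgE receptor and Hdc makes histamine. Ms4a2 stood at 14.0, 13.3 and 18.7 FPKM in the CGG libraries and 3.98, 4.09 and 8.37 FPKM in the CGG-Cit libraries, Fcer1a at 4.23, 5.11 and 2.89 FPKM in the CGG libraries and 1.21, 1.72 and 2.32 FPKM in the CGG-Cit libraries and Hdc at 10.6, 8.05 and 7.02 FPKM in the CGG libraries and 1.93, 2.74 and 5.74 FPKM in the CGG-Cit libraries. The summed level of the list was 546 to 1331 FPKM in CGG and 184 to 593 in CGG-Cit, overlapping between the groups. The eosinophil peroxidase gene Epx stood at 134, 211 and 81.0 FPKM in the CGG libraries and 24.4, 23.7 and 96.7 FPKM in the CGG-Cit libraries, with CGG-Cit 3 in the range of CGG. Their part in the fall of Ccr3 was not tested. Bulk tissue cannot tell fewer cells of a type from less RNA per cell, here and in all results below.

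Ccr3 and its neighbours moved apart. In the table Ccr9, Cxcr6, Ccr1 and Ccr3 lie on chromosome 8 between 132828091 and 133040997. Of these Ccr1 rose, Ccr3 fell, and Ccr9 and Cxcr6 did not pass. Xcr1, outside the name pattern, lies in the same stretch and was called higher in limma (adjusted p = 0.0375). Its CGG mean of 0.372 FPKM was under the filter on low values. Ccr9, a homing receptor of gut T cells and thymocytes, stood at 0.781, 0.448 and 0.588 FPKM in the CGG libraries and 1.66, 2.35 and 0.743 FPKM in the CGG-Cit libraries (0.64 ± 0.264 (SE), adjusted p = 0.137).

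Cxcl16 is a transmembrane chemokine of macrophages and dendritic cells that also takes up oxidised lipoprotein, and Cxcr6, on T and NKT cells, is its receptor. Cxcl16 stood at 35.1, 37.0 and 40.1 FPKM in CGG 1, 2 and 3 and 170.0, 101 and 59.8 FPKM in CGG-Cit 1, 2 and 3. The CGG values were within 1.14-fold of each other and below every CGG-Cit value. Cxcl16 (ENSRNOG00000026647, listed at chromosome 10, 57060007 to 57064600) rose from 37.4 ± 2.52 FPKM in CGG to 110.3 ± 55.7 FPKM in CGG-Cit (SD, n = 3), 1.41 ± 0.344 (SE), adjusted p = 0.0367. Like Ccr3, it was called on dropping CGG-Cit 3 and on dropping no other library: the adjusted p was 0.0960, 0.0937 and 0.103 for CGG 1, CGG 2 and CGG 3, and 0.0544 and 0.110 for CGG-Cit 1 and CGG-Cit 2. The call also ended without the filter on low values (0.0626). Zmynd15 overlaps Cxcl16 on the other strand at a mean of 2.06 FPKM. Cxcr6 stood at 2.61, 0.666 and 1.43 FPKM in the CGG libraries and 5.39, 4.17 and 1.86 FPKM in the CGG-Cit libraries. CGG 1 lay above CGG-Cit 3, and the gene did not pass (0.90 ± 0.385 (SE), adjusted p = 0.149). Fyco1 overlaps it on the other strand with a mean of 10.1 FPKM, above the level of Cxcr6 itself.

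Xcl1, or lymphotactin, is released by T and NK cells and draws cross-presenting dendritic cells, which carry Xcr1. Xcl1 stood at 0.624, 2.55 and 0.523 FPKM in CGG 1, 2 and 3 and 16.4, 6.58 and 3.09 FPKM in CGG-Cit 1, 2 and 3, from 232 reads in all. The groups did not overlap, with CGG 2 next to CGG-Cit 3, and the gene did not pass (1.98 ± 0.569 (SE), adjusted p = 0.0571). It passed without CGG-Cit 3 (0.0258) and after rescaling to TPM (0.0335). Its receptor gene Xcr1, outside the name pattern, stood at 0.563, 0.257 and 0.295 FPKM in the CGG libraries and 1.30, 1.18 and 1.11 FPKM in the CGG-Cit libraries (0.69 ± 0.168 (SE), adjusted p = 0.0375). With a CGG mean of 0.372 FPKM, Xcr1 passed the filter on low values only through the CGG-Cit libraries. Cx3cl1, or fractalkine, a membrane-bound chemokine of endothelium and neurons, stood at 4.39, 5.89 and 5.04 FPKM in the CGG libraries and 7.16, 7.48 and 5.96 FPKM in the CGG-Cit libraries. The groups did not overlap but lay close (0.37 ± 0.140 (SE), adjusted p = 0.116). Its receptor gene Cx3cr1, of resident macrophages and patrolling monocytes, stood at 12.1, 6.996 and 7.08 FPKM in the CGG libraries and 18.0, 11.04 and 13.7 FPKM in the CGG-Cit libraries (0.66 ± 0.249 (SE), adjusted p = 0.112).

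Cxcl1, Cxcl2, Cxcl3 and Cxcl6 are neutrophil attractants that act on Cxcr2, and Cxcl6 also acts on Cxcr1. These 4 were low in every library. Chemokine genes outside the name pattern are given below, among them Ppbp with means of 82.7 FPKM in CGG and 25.4 FPKM in CGG-Cit. Cxcl1 stood at 0.745, 0.553 and 0.567 FPKM in the CGG libraries and 1.77, 0.770 and 0.644 FPKM in the CGG-Cit libraries and Cxcl6 at 0.656, 0.394 and 0.445 FPKM in the CGG libraries and 0.886, 0.479 and 0.440 FPKM in the CGG-Cit libraries, with adjusted p of 0.395 and 0.771. Cxcl2, at 0.234, 0.119 and 0.429 FPKM in the CGG libraries and 1.59, 0.544 and 0.0556 FPKM in the CGG-Cit libraries, and Cxcl3, at 0.385, 0.262 and 0.0896 FPKM in the CGG libraries and 0.625, 0.0442 and 0 FPKM in the CGG-Cit libraries, were too low to be tested, as was Cxcr1, at 0.0853, 0.479 and 0.179 FPKM in the CGG libraries and 0.980, 0.529 and 0.406 FPKM in the CGG-Cit libraries. Cxcl2, Cxcl3 and Cxcr1 rest on 49, 32 and 61 reads over the 6 libraries. By comparison, the left-out receptor gene Cxcr2 stood at 51.7, 66.9 and 54.1 FPKM in the CGG libraries and 13.8, 9.63 and 25.98 FPKM in the CGG-Cit libraries, without overlap. The 11 tested neutrophil markers were all called lower in CGG-Cit (S100a8, S100a9 and Camp first), beside 9.78% of all tested genes. The summed level of the 12 matched was 15277 to 17435 FPKM in CGG and 2456 to 6341 in CGG-Cit.

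Ligands of tissue and barrier type made up the rest. Cxcl14, a chemokine of fibroblasts and epithelium without an assigned receptor, had the highest CGG mean of the members, 85.5 FPKM, and the sixth highest CGG-Cit mean, 67.9 FPKM, with 104, 92.3 and 59.9 FPKM in CGG 1, 2 and 3 and 50.01, 64.7 and 89.1 FPKM in CGG-Cit 1, 2 and 3. The groups overlapped, and CGG-Cit 1 was lowest of all (-0.33 ± 0.271 (SE), adjusted p = 0.426). Cxcl17, of mucosal tissue, stood at 0.946, 3.70 and 2.64 FPKM in the CGG libraries and 11.9, 3.83 and 3.60 FPKM in the CGG-Cit libraries (1.04 ± 0.488 (SE), adjusted p = 0.183). Ccl17 and Ccl22, made by dendritic cells and alternatively activated macrophages, draw Ccr4-bearing T cells. Ccl17 stood at 0.445, 1.59 and 3.26 FPKM in the CGG libraries and 5.800, 1.38 and 8.24 FPKM in the CGG-Cit libraries from 93 reads in all, and Ccl22 at 0.323, 1.87 and 0.565 FPKM in the CGG libraries and 1.57, 2.67 and 7.31 FPKM in the CGG-Cit libraries. For both CGG-Cit 3 was the highest library, where the ligands of Ccr2 and Cxcr3 were highest in CGG-Cit 1, and neither passed (adjusted p = 0.239 and 0.122). Ccr4 stayed at 0.130, 0.0884 and 0.0454 FPKM in the CGG libraries and 0.181, 0.313 and 0.329 FPKM in the CGG-Cit libraries and was not tested.

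Ccl20 draws Ccr6-bearing T and B cells. It stood at 0.159, 0 and 0.0835 FPKM in the CGG libraries and 1.41, 2.22 and 0 FPKM in the CGG-Cit libraries from 47 reads, with 0 reads in CGG 2 and CGG-Cit 3, which allows up to 0.227 to 0.244 FPKM in these libraries at 3 counts. The gene passed the filter on low values through CGG-Cit 1 and CGG-Cit 2 and did not pass the test (adjusted p = 0.194). Ccr6 stood at 0.924, 0.719 and 1.06 FPKM in the CGG libraries and 2.89, 1.23 and 1.004 FPKM in the CGG-Cit libraries (0.45 ± 0.273 (SE), adjusted p = 0.284). Ccr10, a receptor of skin-homing T cells and of plasma cells, stood at 1.58, 2.17 and 1.89 FPKM in the CGG libraries and 2.03, 1.12 and 1.09 FPKM in the CGG-Cit libraries, overlapping (-0.27 ± 0.197 (SE), adjusted p = 0.365). Its ligand gene Ccl27 was not tested, at 0.301, 0.537 and 0 FPKM in the CGG libraries and 0.706, 0.311 and 0.572 FPKM in the CGG-Cit libraries, and Il11ra1 overlaps it on the other strand at a mean of 29.98 FPKM. Ccr8, of regulatory and type 2 T cells, was not tested either, at 0.0590, 0.0602 and 0.247 FPKM in the CGG libraries and 0.678, 0.183 and 0.281 FPKM in the CGG-Cit libraries. Ccl1 and Ccl25, the ligands of Ccr8 and Ccr9, each had 1 read in all, in CGG-Cit 1 and CGG-Cit 3.

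The make-up of the ligand transcripts differed between libraries. Over the 30 ligand genes the total FPKM was 346, 509 and 449 in the CGG libraries and 1448, 868 and 514 in the CGG-Cit libraries, and over the 11 receptor genes it was 57.7, 59.3 and 51.9 in the CGG libraries and 179, 115 and 83.3 in the CGG-Cit libraries. The receptor sums did not overlap between the groups, and the ligand sum of CGG-Cit 3 was about that of CGG 2. Of the ligand sum, Cxcl14 and Ccl6 together held 49.4, 33.0 and 20.9% in the CGG libraries and 6.63, 14.9 and 28.8% in the CGG-Cit libraries. The leading ligand was Cxcl14 in CGG 1 and CGG-Cit 3, Cxcl10 in CGG 2, CGG 3 and CGG-Cit 1, and Ccl9 in CGG-Cit 2. Ccr3 made up 12.6, 10.9 and 10.8% in the CGG libraries and 1.25, 1.36 and 4.000% in the CGG-Cit libraries of the receptor sum. These sums contain the members described above and are no separate evidence.

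**Figure D4:**
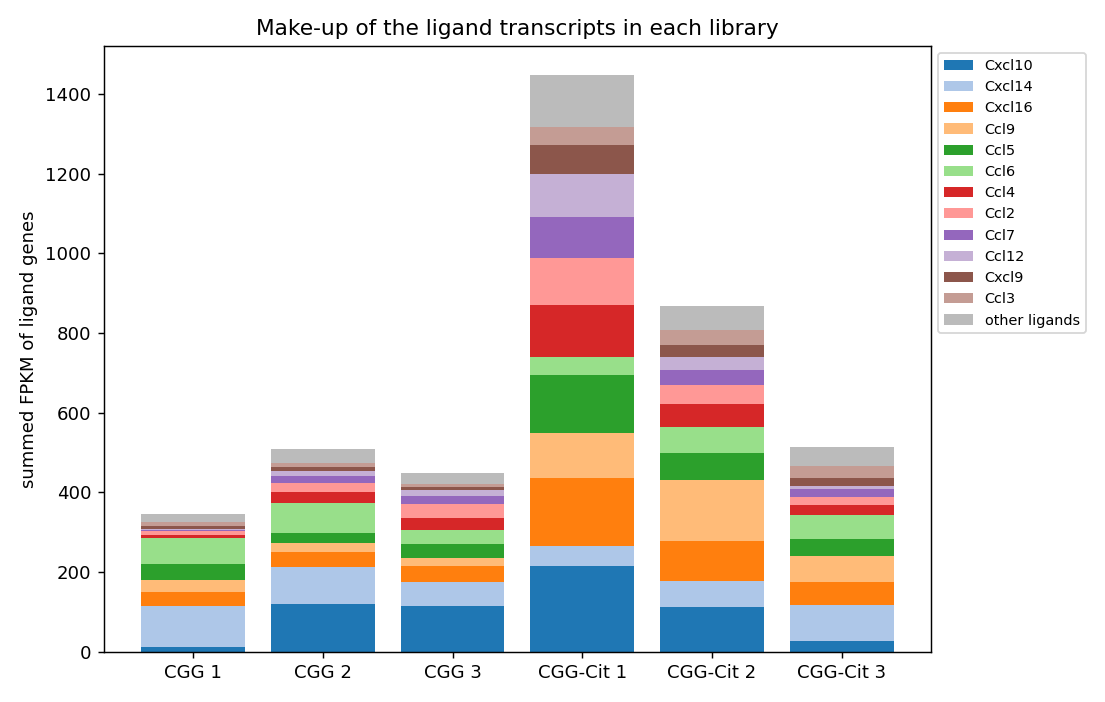
Summed FPKM of the 30 ligand genes in each library, stacked by gene for the 12 with the highest mean, the rest in grey. CGG-Cit 1 has the highest sum and CGG 1 the lowest, and CGG-Cit 3 is close to CGG 2.

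Chemokine family genes outside the name pattern were matched in 16 of 17 cases, Ackr1 not being analysed here. Of these 16, 6 were higher and 2 lower (median 0.51). Here and for the lists that follow, the shares of all tested genes were 7.75% higher and 9.78% lower, and the median was 0.002. Among them were Cmklr1, the receptor of the leukocyte attractant chemerin, at 5.52, 7.91 and 5.79 FPKM in the CGG libraries and 19.7, 15.4 and 14.8 FPKM in the CGG-Cit libraries (1.26 ± 0.167 (SE), adjusted p = 0.0108), and Rarres2, which encodes chemerin, at 38.4, 37.7 and 24.8 FPKM in the CGG libraries and 104, 94.99 and 78.5 FPKM in the CGG-Cit libraries (1.45 ± 0.193 (SE), adjusted p = 0.0108). The atypical receptor gene Ackr2, whose product scavenges inflammatory CC chemokines, rose from 0.142 ± 0.0944 FPKM in CGG to 1.72 ± 0.985 FPKM in CGG-Cit (SD, n = 3) (1.195 ± 0.273 (SE), adjusted p = 0.0313); its CGG libraries held 3, 5 and 1 reads. Ackr2 and Xcr1, both among the 6 called higher, had CGG means under 0.5 FPKM and passed the filter through the CGG-Cit libraries. Ackr3 and Ackr4, scavengers of other chemokines, did not pass (adjusted p = 0.272 and 0.523). Of the platelet chemokine genes, Ppbp fell from 82.7 ± 6.90 FPKM in CGG to 25.4 ± 13.7 FPKM in CGG-Cit (SD, n = 3) (-1.78 ± 0.323 (SE), adjusted p = 0.0197) and Pf4 stood at 357, 389 and 374 FPKM in the CGG libraries and 149, 289.9 and 338 FPKM in the CGG-Cit libraries (adjusted p = 0.189).

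Of 32 tested signalling genes downstream of the receptors 6 were higher and 3 lower, with a median of 0.04. Grk3, a kinase that desensitises receptors, rose by 0.98 ± 0.126 (SE), adjusted p = 0.00968, and Rgs1, which shortens G protein signals, rose by 1.73 ± 0.310 (SE), adjusted p = 0.0191. Rac2, the Rac GTPase of blood cells, stood at 314, 329 and 339 FPKM in the CGG libraries and 186, 166 and 215 FPKM in the CGG-Cit libraries (-0.80 ± 0.117 (SE), adjusted p = 0.0129). The G protein genes Gnai2 and Gnai3 did not pass (adjusted p = 0.518 and 0.751).

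Of 32 cytokine, cytokine receptor and transcription factor genes known to induce chemokines, 24 were tested, 6 were higher and 1 lower (median 0.59). Il33, an alarmin of stromal cells, rose from 12.6 ± 4.10 FPKM in CGG to 41.1 ± 4.70 FPKM in CGG-Cit (SD, n = 3) (1.66 ± 0.211 (SE), adjusted p = 0.00933), the interleukin 1 receptor gene Il1r1 rose by 0.75 ± 0.124 (SE), adjusted p = 0.0169 and Stat6, which carries the interleukin 4 signal, by 0.64 ± 0.111 (SE), adjusted p = 0.0183. Tnf and Ifng, classic inducers, were too low to be tested, at 0, 0.114 and 0 FPKM in the CGG libraries and 0.0779, 0.0772 and 0.0355 FPKM in the CGG-Cit libraries for Tnf and 0.123, 0 and 0.129 FPKM in the CGG libraries and 1.15, 0.381 and 0 FPKM in the CGG-Cit libraries for Ifng. Il1b stood at 7.41, 8.20 and 9.41 FPKM in the CGG libraries and 27.5, 12.4 and 7.04 FPKM in the CGG-Cit libraries (adjusted p = 0.321). Of 21 genes for proteases and matrix molecules that trim or hold chemokines, 6 were higher and 5 lower (median 0.45). The 5 lower were Ctsg, Elane, Prtn3, Mmp8 and Mmp9. Elane and Mmp8 are also counted among the neutrophil markers, and Dcn, among the 6 higher, among the endothelial and fibroblast markers. Adam17, a sheddase of membrane proteins, rose by 0.72 ± 0.123 (SE), adjusted p = 0.0179. The perlecan gene Hspg2, listed as AABR07073181.1, rose from 13.4 ± 0.164 FPKM in CGG to 24.6 ± 3.24 FPKM in CGG-Cit (SD, n = 3) (0.82 ± 0.114 (SE), adjusted p = 0.0115). The neutrophil protease gene Ctsg stood at 456, 362 and 569 FPKM in the CGG libraries and 118, 82.1 and 215 FPKM in the CGG-Cit libraries (-1.82 ± 0.352 (SE), adjusted p = 0.0220).

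Markers of cells that make or carry these chemokines also differed between the groups. Beside each count the listed genes with the smallest p are named. Of 13 macrophage markers matched 9 were higher (Msr1, Ctss and Cd68 first) and 0 lower (median 0.83), with a summed level of 6835 to 7611 FPKM in CGG and 7007 to 9097 in CGG-Cit that overlapped between the groups and was mostly Lyz2. Lyz2 itself stood at 5708, 6496 and 6207 FPKM in the CGG libraries and 5802, 6515 and 5297 FPKM in the CGG-Cit libraries (log2 fold change -0.07). Cd68, a lysosomal protein of macrophages, stood at 187, 239 and 226 FPKM in the CGG libraries and 549.6, 661 and 383 FPKM in the CGG-Cit libraries (1.26 ± 0.214 (SE), adjusted p = 0.0176). Levels of the 2 called Ccr1 ligands were also set against these markers, a choice made after the values were seen. Per 100 FPKM of the whole sum Ccl3 stood at 0.155, 0.153 and 0.130 FPKM in CGG and 0.547, 0.408 and 0.420 FPKM in CGG-Cit, and Ccl9 at 0.443, 0.318 and 0.287 FPKM in CGG and 1.40, 1.68 and 0.930 FPKM in CGG-Cit. Per 100 FPKM of the sum without Lyz2 Ccl3 stood at 0.940, 1.05 and 0.952 FPKM in CGG and 1.93, 1.44 and 1.72 FPKM in CGG-Cit, and Ccl9 at 2.69, 2.17 and 2.09 FPKM in CGG and 4.92, 5.92 and 3.81 FPKM in CGG-Cit. Per 100 FPKM of Cd68 Ccl3 stood at 5.67, 4.87 and 4.14 FPKM in CGG and 8.07, 5.62 and 7.69 FPKM in CGG-Cit, and Ccl9 at 16.2, 10.1 and 9.10 FPKM in CGG and 20.6, 23.1 and 17.0 FPKM in CGG-Cit. Against Cd68 the Ccl3 groups overlapped, CGG 1 lying just above CGG-Cit 2, while against both sums they did not. Of 12 dendritic cell and antigen presentation markers 5 were higher (Itgax, Cd74 and RT1-Da first) and 0 lower (median 0.76). Their sums were 663 to 970.1 FPKM in CGG and 1367 to 2176 in CGG-Cit. Xcr1, counted above among the chemokine family genes, is also among these 5. It passed the filter on low values only through the CGG-Cit libraries. Of 14 T and NK cell markers 1 was lower (Nkg7) and 1 higher (Cd28) (median 0.77), with sums of 245 to 299 FPKM in CGG and 265 to 346 in CGG-Cit. In CGG this sum was mostly Nkg7 and Cd4. Nkg7, with a mean of 154 FPKM in CGG and 60.4 in CGG-Cit, alone of the 14 had a negative log2 fold change. The means of Cd3e were 4.67 and 10.4 FPKM and those of Cd8a 11.05 and 25.4, but neither passed (adjusted p = 0.0793 and 0.108 in limma). B and plasma cell markers had 0 higher and 4 lower of 10 (Vpreb3, Cd79b and Igll1 first; sums of 1139 to 1278 FPKM in CGG and 971 to 1180.0 in CGG-Cit), and endothelial and fibroblast markers 3 higher and 0 lower of 10 (Pdgfra, Col14a1 and Dcn; sums of 1750.0 to 3026 FPKM in CGG and 3507 to 4355 in CGG-Cit). The 8 skeletal muscle markers were all lower (Tnnt3, Myh1 and Ckm first), with sums of 6329 to 7898 FPKM in CGG and 35.2 to 325 in CGG-Cit, and 5 of the 10 osteoblast markers were lower (Phospho1, Alpl and Ibsp first). At an unadjusted p under 0.05 in limma, the higher and lower counts were 11 and 0 for macrophage, 8 and 0 for dendritic and 7 and 1 for T and NK cell markers. They were 0 and 8 for osteoblast, 0 and 8 for muscle, 0 and 7 for B and plasma cell, and 5 and 0 for endothelial and fibroblast markers. The shares of all tested genes at this unadjusted threshold were not counted. They are at least the 7.75% higher and 9.78% lower of the adjusted calls, so the unadjusted counts cannot be set against all genes. No matched marker was at 0 in every library. The part of these differences in the chemokine results was not tested.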

How the data were processed

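The authors deposited a table of FPKM for 34045 genes, 22250 of them protein coding, from total RNA of the calvarial defect area, sequenced in read pairs per the labels' protocols. Per the submitters' processing notes the tools were HISAT2 2.0.5 and featureCounts 1.5.0-p3, with DESeq2 1.20.0 and the build mRatBN7.2 also listed; no annotation release or strand setting was given in these sources. The last gene on chromosome 1 ends at 282724300 in the table and at 270492571 in RefSeq's GRCr8 gene table, and since it was not settled which build the table follows, its coordinates are printed without one. The deposited table also gives gene lengths. FPKM times gene length, divided by a constant for each library, gave whole reads for 100% of values, within 0.01 reads.

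Groups came from the sample titles. The fit was limma 3.58.1 in R 4.3.3 (lmFit, eBayes with trend, no block) on log2(FPKM + 1) for the 15965 genes averaging 0.5 FPKM or more, with Benjamini-Hochberg adjustment, and was tested on simulated data. Python 3.11.15 and pandas 2.3.3 were used. Members and gene lists were chosen with earlier results of these data known. The naming rule gives full values for called members, for the 10 largest absolute log2 fold changes and for their partners, and names the called genes with the 3 smallest p per list plus the atypical receptors, Cx3cr1, Xcr1, Pf4 and Ppbp. Values of other members, of Gnai2, Gnai3, Irf1, Il1b, Tnf, Ifng and Epx, and the promoters, motifs and ratios were chosen after values were seen; the kB and interferon motifs were first searched in longer forms and then shortened. Counts cover all members and list genes, of which some are not reported here by name. Alternatives were pseudocounts of 0.1 and 0.5, no filter or a mean of 2 FPKM, median-of-ratios, TPM and quantile scaling, voom on recovered reads, robust variance, the replicate block and each library left out.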

Additional observations from a re-analysis of the deposited data

How the results depend on the processing

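Without a library the number of members higher in CGG-Cit ranged from 1 (without CGG 3) to 11 (without CGG-Cit 3), against 6, and was 2 without CGG 1, CGG 2 or CGG-Cit 2 and 4 without CGG-Cit 1. The number lower ranged from 0 to 1, being 1 only without CGG-Cit 3 (at an unadjusted p under 0.05 limma gave 1 to 2 lower in the fits with 0). Ccl3 was called in all of these fits. Under the other 10 alternatives 4 to 9 members were higher (4 without the filter on low values and 9 after rescaling to TPM) and Ccr3 alone was lower. With the replicate number as a block 5 members were higher and 1 lower, Cxcl16 being lost (adjusted p = 0.0666). Deviations of same-numbered libraries correlated at -0.0956, 0.00165 and -0.0779, and no library correlated best with its own number, so the numbers were not taken as pairs. Over all genes the block gave 612 higher and 1055 lower, against 1237 and 1561, and leaving out a library 122 to 1312 and 190 to 1622. TPM gave 2203 and 948 (69.9% higher, against 44.2%), and no filter 842 and 1133. Of 288 values for 18 named members, 252 kept direction and side of the threshold, 27 lost the call, 5 gained it and 4 reversed. These 4 were all Ccl6 (0.01 with all libraries, -0.34 to 0.23 on leaving one out), at -0.00234 with quantile normalization, -0.34 without CGG 3, -0.10 without CGG-Cit 2 and -0.03 without CGG-Cit 3. The cause was not tested. With 3 libraries a group, members with a wide spread could not be called at large fold changes, and the 10 members under the filter rest on 0 to 61 reads.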

Other observations

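Ratios within a library show how members shifted against each other. They were chosen after the values were seen and carry no test. The ratio of Ccl9 to its neighbour Ccl6 was 0.455, 0.320 and 0.605 in the CGG libraries and 2.46, 2.36 and 1.11 in the CGG-Cit libraries, so Ccl6 was the higher of the pair in all CGG libraries and Ccl9 in all CGG-Cit libraries. The ratio of Ccr3 to Ccr1 was 0.414, 0.297 and 0.364 in the CGG libraries and 0.0477, 0.0440 and 0.127 in the CGG-Cit libraries. For 2 pairs of related ligands the ratios did not separate the groups. Ccl4 over Ccl3 stood at 0.590, 2.25 and 3.42 in the CGG libraries and 2.97, 1.60 and 0.927 in the CGG-Cit libraries, and Cxcl10 over Cxcl9 at 1.25, 12.9 and 16.7 in the CGG libraries and 2.92, 3.63 and 1.34 in the CGG-Cit libraries. For Cxcl10 over Cxcl9, CGG 1 stood with CGG-Cit 3 at the low end and apart from CGG 2 and CGG 3.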
